A study of Mus musculus with 15 samples.

Results

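CC chemokines are small secreted proteins, named for a pair of adjacent cysteines, that draw white blood cells along a concentration gradient. The 8 genes described here are Ccl2, Ccl7, Ccl12, Ccl3, Ccl4, Ccl5, Ccl20 and Ccl17. They were taken by symbol from the gene count tables of 15 libraries, which list 25748 genes, and all 8 were found. Cells release chemokines when receptors for microbial products signal through MyD88 and TRIF to NF-kB, a transcription factor held in the cytoplasm at rest. In injured brain and spinal cord, astrocytes are a known source of CCL2, which draws monocytes. Several chemokine mRNAs also turn over fast, because AU-rich stretches in their 3′ untranslated regions are bound by decay factors such as ZFP36.

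The libraries were made from polyA RNA of primary mouse brain astrocytes, with 5 libraries in each of 3 groups. The control group was untreated. The group the submitters name SCI received lipopolysaccharide (LPS), a component of the outer membrane of gram-negative bacteria and the ligand of TLR4, at 1 µg/mL for 6 to 8 h; it is called LPS here. The Rg1 plus LPS group received 80 µM Rg1, a ginseng saponin, for 12 h before the same LPS exposure. LPS on cultured cells stands for inflammatory stimulation, and no group held cells from an injured cord. No sample analysed here received Rg1 without LPS, and the labels give no strain, age, sex or genotype. The treatment field of the Rg1 plus LPS group runs from Rg1 to Rg5, whereas titles and design text give 5 replicates of a single treatment, which was followed. Whether the 5 libraries of a group are separate cultures is not stated, so the spread behind every p-value here may be technical.

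Library totals ran from 34.2 to 41.764 M counts. Levels are given as CPM, the count per M counts after TMM scaling, and folds and adjusted p-values are from edgeR's quasi-likelihood test with Benjamini-Hochberg adjustment over 15362 genes. A gene is called higher or lower at adjusted p under 0.05. Of 10 astrocyte markers none was at 0 in any library, and 6 were lower with LPS (Sox9 at -1.46), beside 9.82% of all genes tested. In Rg1 plus LPS, 5 were higher and 1 lower than in LPS, beside 22.2% and 23.2% of all genes. Against control, 4 were lower in Rg1 plus LPS and none was higher, beside 18.1% and 18.8% of all genes. Gfap, an astrocyte filament gene, had 4017 ± 556 CPM in control libraries, 2849 ± 955 with LPS and 3167 ± 540 with Rg1 and LPS (SD, n = 5). Over 6 fibroblast and meningeal markers the summed level ran from 3623 to 4786 CPM in control, 3949 to 5366 in LPS and 1820 to 5370 in Rg1 plus LPS, and none of the 5 tested was called in any comparison. The part of these lists in the results was not tested. Markers of microglia and macrophages, which also make CC chemokines, were present too. Of 18 such genes none was at 0 in any library, and their summed level ran from 136 to 249 CPM (median 151) in control, 141 to 236 (median 157) in LPS and 121 to 150 (median 137) in Rg1 plus LPS. In bulk RNA, fewer cells of a type and less RNA per cell cannot be told apart.

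With LPS, 7 of the 7 members that could be tested rose, against 23.7% of all genes called in either direction, 13.8% called higher and 9.82% lower. Ccl12 had too few counts to be tested in that fit. In a fit of control and Rg1 plus LPS alone only Ccl2, Ccl5 and Ccl7 passed the count filter. Ccl3, Ccl4 and Ccl20 thus passed through the LPS libraries, where they were high. Ccl17 did not pass in a fit of control and LPS alone, where 6 members did, but passed in a fit of both LPS-exposed groups. The tallies and medians of the 7 are therefore a description. In 6 of the 7 every LPS library exceeded every control library, a pattern that 12.8% of all genes showed in this direction and 7.64% in the other. The median log2 fold change of the 7 was 5.66, beside -0.0029 for all genes tested. In Rg1 plus LPS, 6 of the 7 were lower than in LPS, against 45.4% of genes called in either direction, 23.2% lower and 22.2% higher, and these 6 did not overlap (15.1% of all genes did so in this direction and 12.4% in the other). The median of the 7 was -7.47, with all genes at 0.028. Ccl17 was the tested member that was not called. Against control, Ccl2, Ccl4 and Ccl7 were lower in Rg1 plus LPS and Ccl17 was higher, 4 of 7, where 36.9% of all genes were called, 18.1% lower and 18.8% higher. Ccl3, Ccl5 and Ccl20 were not called in that comparison. Every pair of these comparisons shares 5 libraries.

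**Figure D1:**
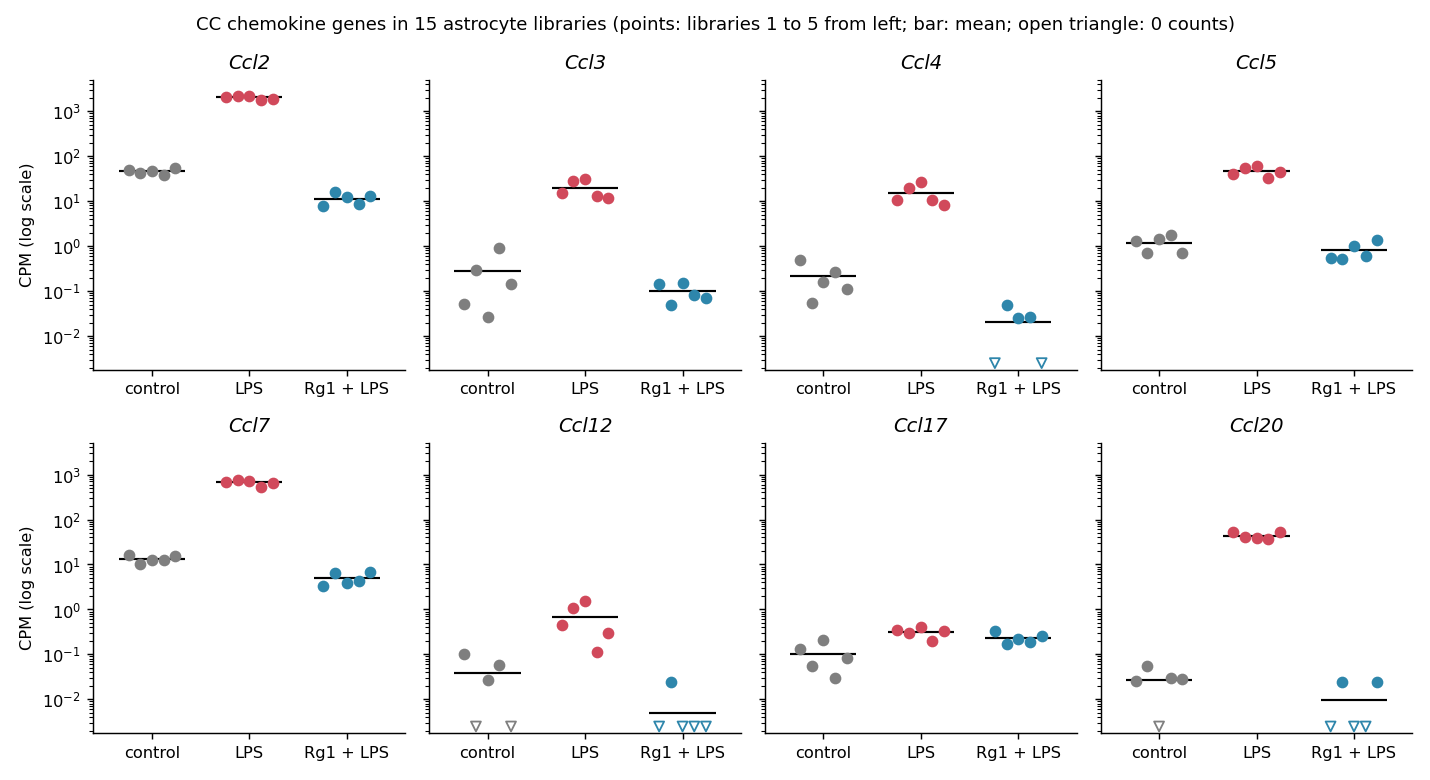
CPM of the 8 genes (log axis) in the 15 libraries, in the order of replicates 1 to 5 within a group; bars are group means and open triangles mark libraries with 0 counts. In LPS, 6 genes stand clear of both other groups and Ccl12 is level with control in 1 library, whereas Ccl17 stays within 0.0293 to 0.399 CPM in all libraries.

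Ccl2, Ccl7 and Ccl12 encode the monocyte-attracting members and lie in 1 cluster on chromosome 11. Ccl2 had the highest level. Its CPM was 48.7, 42.0, 47.7, 38.2 and 54.6 in the control libraries, 2050, 2212, 2198, 1750 and 1889 in the LPS libraries, and 7.66, 15.9, 12.1, 8.51 and 12.7 in the Rg1 plus LPS libraries. All LPS libraries lay far above the others, and all Rg1 plus LPS libraries lay below every control library. The log2 fold change was 5.45 ± 0.19 (SE; edgeR adjusted p = 3.52e-12) with LPS, a 43.7-fold rise. Against LPS, Ccl2 in Rg1 plus LPS had -7.47 ± 0.21 (edgeR adjusted p = 1.72e-13), which is 177-fold lower. Against control it had -2.02 ± 0.17 (edgeR adjusted p = 2.96e-07), or 4.06-fold lower.

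The neighbouring gene Ccl7 followed the same order of groups.
Ccl7 CPM was 15.9, 10.2, 12.7, 12.6 and 15.2 in control, 699, 762, 725, 525 and 662 in LPS, and 3.26, 6.40, 3.93, 4.39 and 6.82 in Rg1 plus LPS. The groups did not overlap in any pair. With LPS the log2 fold change was 5.66 ± 0.20 (edgeR adjusted p = 1.05e-11). Rg1 plus LPS gave -7.09 ± 0.22 against LPS (edgeR adjusted p = 1.01e-12) and -1.42 ± 0.19 against control (edgeR adjusted p = 3.43e-05), the latter 2.68-fold lower. In FPKM, which corrects for gene length, Ccl2 stood at 3.50 ± 0.467 times Ccl7 in control, 2.99 ± 0.189 in LPS and 2.33 ± 0.489 in the Rg1 plus LPS group (SD, n = 5), with overlapping ranges of 3.02 to 4.11, 2.84 to 3.31 and 1.85 to 3.07.

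Ccl12, the other monocyte attractant of the cluster, was scarce throughout. It had 4, 0, 1, 2 and 0 counts in control, 17, 39, 50, 4 and 12 in LPS, and 0, 1, 0, 0 and 0 in Rg1 plus LPS. LPS libraries 2 and 3 were the highest, and LPS library 4 held as many counts as control library 1. With no filter on low counts Ccl12 was called higher with LPS, at a log2 fold change of 4.05 ± 0.77 (edgeR adjusted p = 0.000727). The 122 counts in LPS against 1 in Rg1 plus LPS give a ratio of 135, with a 95% exact counting interval from 23.8 to 5384. Counting intervals cover counting error only. Control held 7 counts, 7.72 times the rate in Rg1 plus LPS, with an interval from 0.992 to 348. A difference between these groups was thus not detectable at this depth.

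Ccl3, Ccl4 and Ccl5 encode attractants of T cells and macrophages and lie in the second cluster of chromosome 11. Ccl3 CPM was 0.0517, 0.298, 0.0267, 0.907 and 0.140 in control, 15.4, 28.0, 30.8, 13.3 and 11.9 in LPS, and 0.145, 0.0496, 0.148, 0.0798 and 0.0715 in Rg1 plus LPS. LPS libraries 2 and 3 were the highest of their group, control library 4 was the highest control, and control and Rg1 plus LPS overlapped. With LPS the log2 fold change was 6.15 ± 0.53 (edgeR adjusted p = 3.95e-07), which became 7.24 without control library 4. Rg1 plus LPS gave -7.60 ± 0.60 against LPS (edgeR adjusted p = 7.70e-08). The value against control, -1.45 ± 0.83, missed the threshold (edgeR adjusted p = 0.186) and moved to -0.35 without control library 4.

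Ccl4 had the same order of the LPS libraries as Ccl3, but another order within control and Rg1 plus LPS. Its CPM was 0.491, 0.0542, 0.160, 0.263 and 0.112 in control, 10.6, 19.6, 26.6, 10.5 and 8.27 in LPS, and 0, 0.0496, 0.0247, 0.0266 and 0 in Rg1 plus LPS. The same 2 LPS libraries were highest. In CPM every Rg1 plus LPS library lay below every control library, although the Rg1 plus LPS libraries held only 4 counts in all against 40. Control library 2 and Rg1 plus LPS library 2 each held 2 counts, so their order rests on the scaling. With LPS the log2 fold change was 6.09 ± 0.46 (edgeR adjusted p = 6.30e-08). Rg1 plus LPS gave -9.35 ± 0.61 against LPS (edgeR adjusted p = 6.98e-09) and -3.26 ± 0.94 against control (edgeR adjusted p = 0.0133). That last call was lost with limma voom, where the value was -2.79 (adjusted p = 0.144).

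Ccl5, also known as RANTES, was the more abundant of the 3. Its CPM was 1.29, 0.705, 1.42, 1.76 and 0.701 in control, 39.4, 54.4, 60.7, 33.3 and 45.4 in LPS, and 0.556, 0.521, 1.01, 0.612 and 1.38 in Rg1 plus LPS. LPS stood apart from both other groups, which overlapped each other. The log2 fold change was 5.31 ± 0.29 with LPS (edgeR adjusted p = 1.55e-09) and -5.82 ± 0.30 in Rg1 plus LPS against LPS (edgeR adjusted p = 5.20e-10). Against control it was -0.51 ± 0.33 (edgeR adjusted p = 0.235), which missed the threshold.

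Ccl20 encodes the ligand of CCR6, carried by Th17 cells, B cells and some dendritic cells, and had the largest fold change of the tested members. It had 1, 2, 0, 1 and 1 counts in the control libraries, 1956, 1515, 1244, 1289 and 2081 in the LPS libraries, and 0, 1, 0, 0 and 1 in the Rg1 plus LPS libraries. The LPS libraries stood far apart, and no other library held more than 2 counts.
In CPM the LPS mean was 44.1 ± 7.74 (SD, n = 5). With LPS the log2 fold change was 10.49 ± 0.26 (edgeR adjusted p = 6.08e-14). The 8085 counts in LPS against 2 in Rg1 plus LPS give a ratio of 4481, with a 95% exact counting interval from 1240 to 37004. Control held 5 counts, 2.76 times the rate in Rg1 plus LPS with an interval from 0.451 to 29.0, so these 2 groups could not be told apart at this depth.

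Ccl17 encodes a ligand of CCR4, a receptor of T helper and regulatory T cells, and had the smallest changes of the tested members with LPS and between the LPS-exposed groups. It had 5, 2, 8, 1 and 3 counts in control, 13, 11, 13, 7 and 13 in LPS, and 14, 7, 9, 7 and 11 in Rg1 plus LPS. Both LPS-exposed groups overlapped control through control library 3 and overlapped each other. With LPS the log2 fold change was 1.57 ± 0.42 (edgeR adjusted p = 0.0124), a call lost when LPS libraries 2 and 3 and control library 4 were all left out (1.24, adjusted p = 0.0861). Rg1 plus LPS against LPS gave -0.40 ± 0.38 (edgeR adjusted p = 0.411). Against control it gave 1.17 ± 0.43 (edgeR adjusted p = 0.0412), a call lost in 9 of the 15 fits that left out 1 library (controls 1, 2, 4 and 5, LPS 1 and 2, Rg1 plus LPS 1, 3 and 5) and with DESeq2 (adjusted p = 0.0549).

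**Figure D2:**
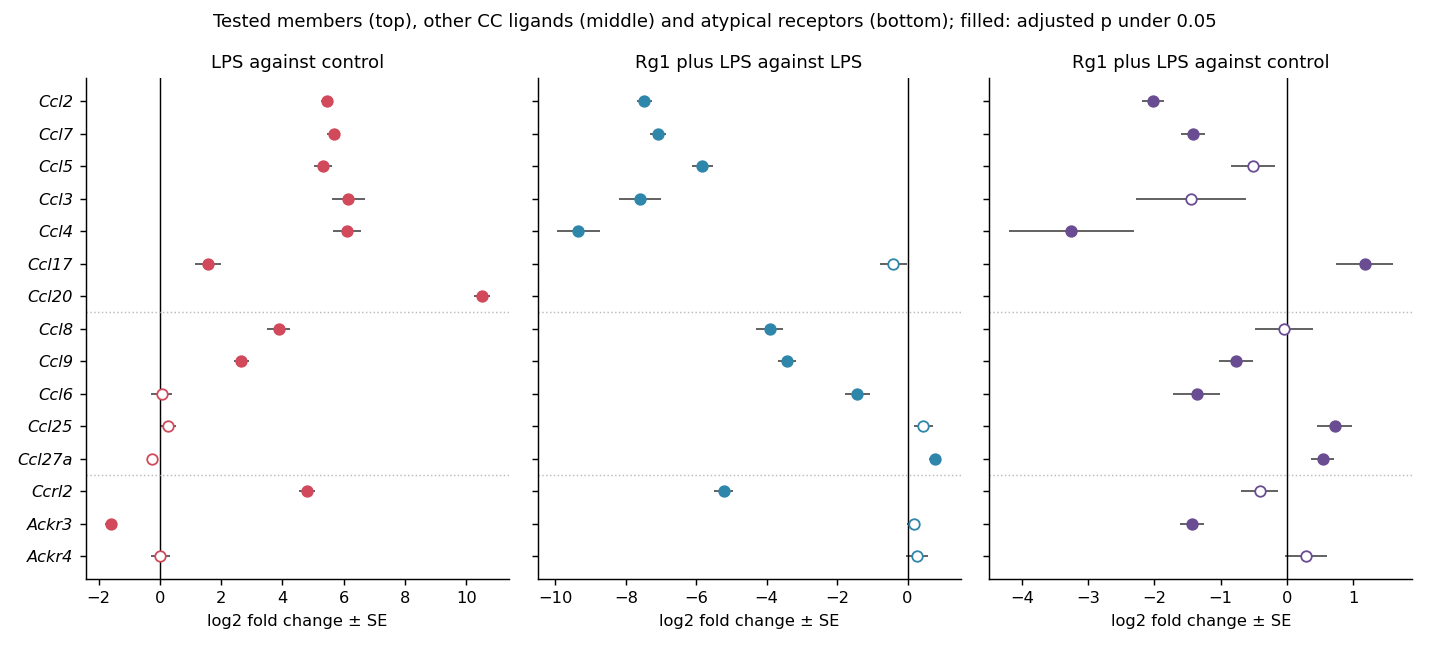
log2 fold changes ± SE (edgeR) of the tested members, other CC ligands and atypical receptors in the 3 comparisons; filled points passed adjusted p under 0.05. Ccl20 is drawn for LPS against control alone, because control and Rg1 plus LPS hold 5 and 2 counts. Of the members, Ccl17 lies nearest 0 with LPS at 1.57 and Ccl20 farthest at 10.49.

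Levels of different genes were compared in FPKM. Ccl2 came first and Ccl7 second in all 3 groups, with ranges that did not overlap each other or any lower gene. In control Ccl2 stood at 57.0 ± 7.44 FPKM, Ccl7 at 16.5 ± 2.73 and Ccl5 at 2.20 ± 0.871 (SD, n = 5). The other 5 members had means from 0.0340 to 0.359 FPKM, and neighbours in that order overlapped.

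In LPS, Ccl2 reached 2415 ± 219 FPKM and ranked 9th of all genes, from rank 1257 in control. Ccl7 reached 811 ± 102 FPKM at rank 45. Ccl5 at 84.4 ± 19.2 and Ccl20 at 53.0 ± 9.00 FPKM overlapped, as did Ccl3 at 24.2 ± 10.6 and Ccl4 at 22.0 ± 11.1. Ccl20 thus moved from the last place in control to the fourth, while Ccl12 at 1.24 and Ccl17 at 0.206 FPKM came last.

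In Rg1 plus LPS the first places were again held by Ccl2 (14.7 ± 4.31 FPKM, rank 4095), Ccl7 (6.43 ± 1.96) and Ccl5 (1.60 ± 0.713). The other means were at or below 0.168 FPKM, and neighbours among them overlapped. The summed FPKM of the 8 genes was 76.5 ± 8.94 in control, 3412 ± 350 in LPS and 23.1 ± 6.15 in the Rg1 plus LPS group (SD, n = 5). Ccl2 made up 74.4%, 70.9% and 63.5% of that sum, and Ccl7 21.5%, 23.7% and 27.9%. The mRNA of this family was thus mostly Ccl2 and Ccl7 in each group.

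**Figure D3:**
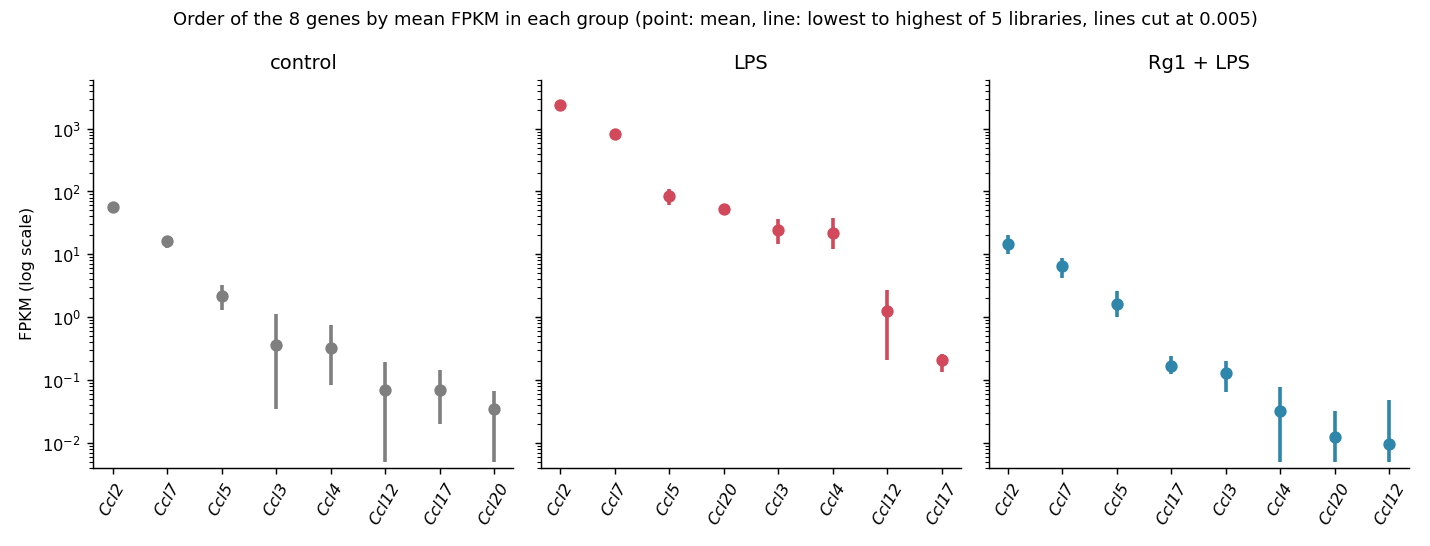
Mean FPKM (log axis) of the 8 genes in order of level in each group; lines span the lowest to the highest of 5 libraries and end at 0.005 where a library is at 0. Ccl2, Ccl7 and Ccl5 lead in all groups, and Ccl20 moves from last in control to the fourth place in LPS at 53.0 FPKM.

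The members differed in how much they varied among the LPS libraries. The coefficient of variation of CPM was 9.89% for Ccl2, 13.5% for Ccl7, 17.6% for Ccl20 and 23.7% for Ccl5, but 44.5% for Ccl3, 51.3% for Ccl4 and 85.1% for Ccl12. Ccl3, Ccl4, Ccl5 and Ccl12 were all highest in LPS library 3 and second highest in LPS library 2. Ccl20 did not share this order, where those libraries ranked 4 and 3.

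Ccl2 and Ccl7 were also highest in LPS libraries 2 and 3, by a smaller margin. The libraries differed in microglia and macrophage markers as well. Among the most abundant of the 18 markers were Tmem119, Cd68 and Ctss. Ctss, the gene of a lysosomal protease, had 8.73 ± 6.39 CPM in control, 11.8 ± 3.65 with LPS and 2.79 ± 0.923 with Rg1 and LPS (SD, n = 5). Over 15 of the 18, a choice made after seeing the values, the summed level was 38.7, 78.8, 103, 42.2 and 30.6 CPM in LPS libraries 1 to 5. It was 26.7, 28.9, 30.1, 109 and 28.7 CPM in control, and 10.3 to 21.3 CPM (median 15.7) in Rg1 plus LPS. LPS libraries 3 and 2 and control library 4 were thus high in these markers. The summed level of the 10 astrocyte markers was high in the same libraries, at 5806, 7680, 10012, 5772 and 5783 CPM in LPS libraries 1 to 5. Control library 4 was the highest control for that sum too, at 11376 CPM. Control library 4 was the control with the most Ccl3 and Ccl5. Ccl4 and Ccl12 were highest in control library 1, at only 19 and 4 counts, against 9 and 2 in control library 4. Control library 1 had the lowest sum of the 15 microglia and macrophage markers among controls, and Ccl2 was lowest in control library 4.

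By the test, 1 of the 18 markers (Spi1, a transcription factor of myeloid cells) was higher with LPS, beside 13.8% of all genes, and 7 were when control library 4 was left out. In Rg1 plus LPS, 11 of 18 were lower than in LPS (7 without LPS libraries 2 and 3), beside 23.2% of all genes, and 7 were lower than in control (4 without control library 4), beside 18.1%. Without LPS libraries 2 and 3, a setting added after seeing the data, Ccl3 had log2 fold changes of 5.59 with LPS and -7.06 in Rg1 plus LPS against LPS, Ccl4 had 5.47 and -8.74, and Ccl5 had 5.06 and -5.59. All of these stayed past the threshold, and Ccl4 moved from 68.2-fold to 44.3-fold and from 652-fold to 426-fold. Ccl2 stood at 5.36 and -7.39 without them. The part of these markers in the lower chemokine levels of Rg1 plus LPS was not tested.

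**Figure D4:**
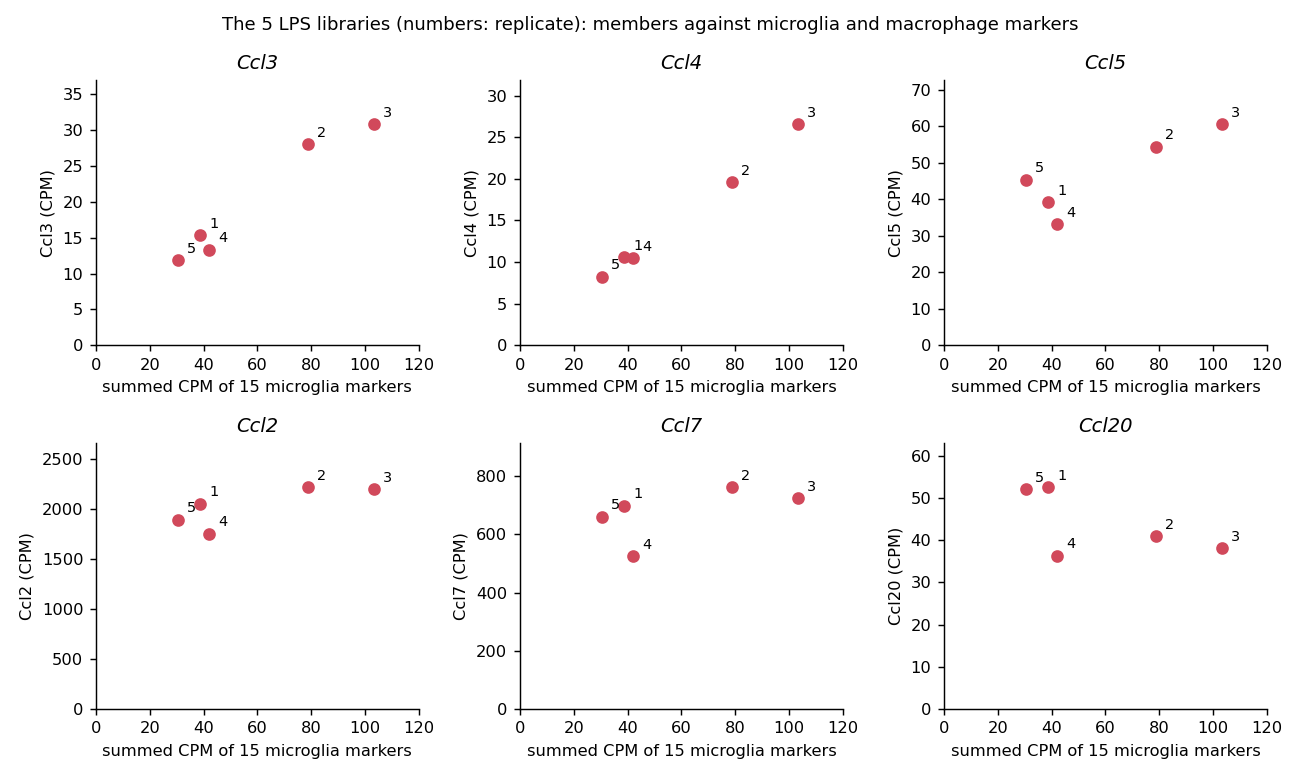
CPM of 6 members against the summed CPM of 15 microglia and macrophage markers in the 5 LPS libraries; numbers are replicates and axes start at 0. Libraries 2 and 3, at 78.8 and 103 CPM of markers, hold the highest Ccl3, Ccl4 and Ccl5 but not the highest Ccl20. The same libraries also hold the highest sums of astrocyte markers in LPS, at 7680 and 10012 CPM (not drawn).

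Among markers of T and dendritic cells, 6 of 8 listed genes were analysed here and 2 had enough counts. Their summed level was 2.52 to 3.83 CPM in control, 11.0 to 15.4 in LPS and 0.865 to 1.46 in the Rg1 plus LPS group, nearly all of it Zbtb46, a transcription factor gene (2.77, 12.2 and 0.912 CPM). In every group at least 1 library had 3 or 4 of the 6 at 0. Endothelial and pericyte markers summed to 242 to 253 CPM in control, 301 to 344 in LPS and 159 to 234 in the Rg1 plus LPS group, over 9 genes with up to 3 at 0. The part of either list in the results was not tested.

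The 6 members of chromosome 11 fall in 2 groups of neighbours (GRCm38, GENCODE M21 annotation). Ccl2 (chr11:82035571-82037453), Ccl7 (chr11:82045712-82047525) and Ccl12 (chr11:82101845-82103400) lie on the plus strand with Ccl11 and Ccl8 in 81.2 kb. Ccl5 (chr11:83525778-83530518, minus), Ccl3 (chr11:83647844-83649355, minus) and Ccl4 (chr11:83662584-83664683, plus) lie 1409 kb further with Ccl9 and Ccl6 in 139 kb. Ccl20 (chr1:83116766-83119167, plus) and Ccl17 (chr8:94810453-94812036, plus) lie elsewhere, and all 8 are annotated as protein-coding. The gene model Gm17268 covers all 1883 bases of Ccl2 on the other strand. The strand setting of the counting is not given in the sources used here, so reads of the 2 cannot be told apart. Between member transcripts the longest shared exact run was 23 bases, between Ccl2 and Ccl7.

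Of the 8 CC ligand genes tested in these clusters, 7 were higher with LPS and 8 were lower in Rg1 plus LPS than in LPS. Among the 8 are the members Ccl2, Ccl7, Ccl5, Ccl3 and Ccl4, already counted above. Of these, Ccl3 and Ccl4 passed the count filter through the LPS libraries. Of 7 other tested genes within 100 kb, 2 were higher with LPS and 2 were lower in Rg1 plus LPS, beside the 13.8% and 23.2% of all genes called so. One of them, Gm31522, is a long noncoding RNA gene whose lower end is at -52.5 kb from that of Ccl2. It stood at 0.0385 CPM in control (0 to 0.112), 1.95 in LPS (1.19 to 2.55) and 0.0314 in Rg1 plus LPS (0 to 0.133). LPS did not overlap the others, with log2 fold changes of 5.55 (edgeR adjusted p = 1.61e-05) and -5.88 (edgeR adjusted p = 5.46e-06). Asic2, the other tested gene by the first cluster, was not called in either comparison. By the second cluster Taf15, Mmp28 and Gas2l2 were not called in either, and Heatr6 had 0.25 with LPS. Wfdc17 was lower in Rg1 plus LPS than in LPS (-3.05, edgeR adjusted p = 0.00193) and was not called with LPS. Gm31522 held 354 counts in LPS against 7 in control and 6 in Rg1 plus LPS, so it too passed the count filter through the LPS libraries. The genes in and by the clusters were picked by position after values were seen, and the cluster tallies are a description.

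**Figure D5:**
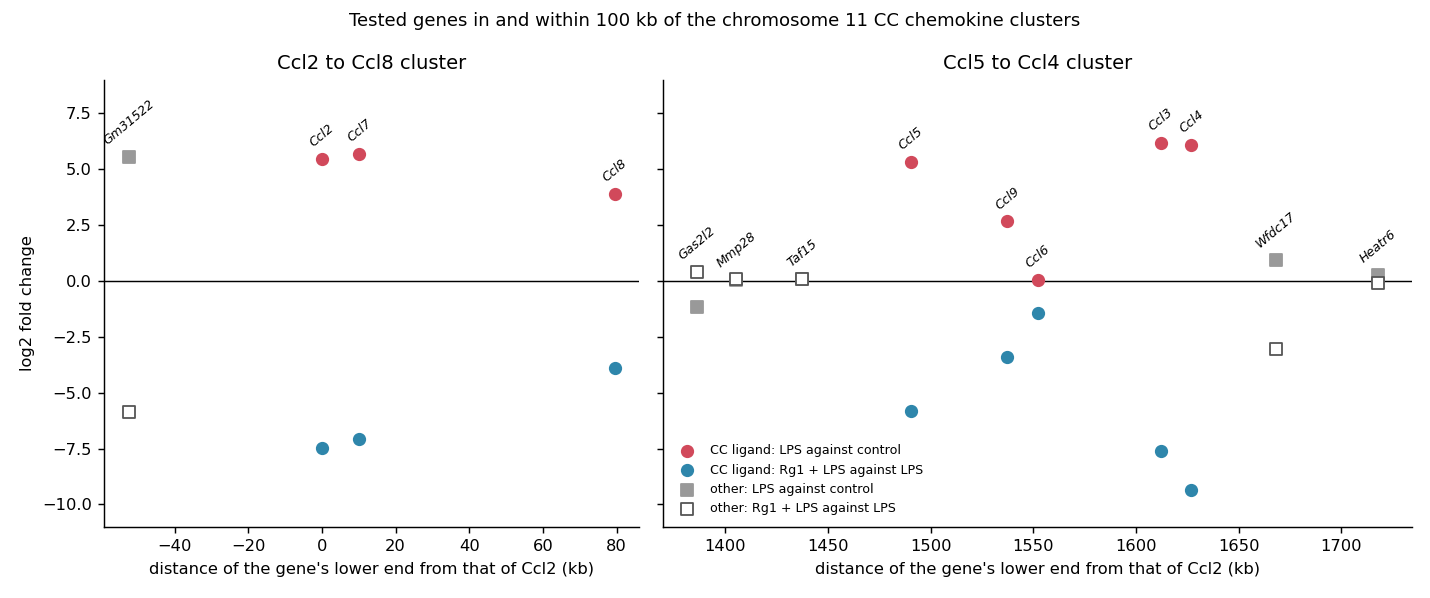
log2 fold changes of tested genes in and within 100 kb of both chromosome 11 clusters, by distance from Ccl2 in kb; circles are CC ligands and squares other genes, and Asic2, whose body spans beyond the window, is left out of the plot. CC ligands lie between 0.06 and 6.15 with LPS and between -1.42 and -9.35 in Rg1 plus LPS against LPS. Of the other genes, Gm31522 (5.55 and -5.88) and Wfdc17 (0.96 and -3.05) also fall in both ranges.

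The promoter sequences, from RefSeq on GRCm38.p6, cover 250 bases before and 50 after the start for 4 of the 8 members, Ccl3, Ccl12, Ccl17 and Ccl20. Ccl20, Ccl3 and Ccl17 are shown, because they had a very large, a large and a small fold change with LPS. Capitals mark the match to the kappa-B consensus, the site of NF-kB.
Ccl20 (chr1:83116516-83116815, plus): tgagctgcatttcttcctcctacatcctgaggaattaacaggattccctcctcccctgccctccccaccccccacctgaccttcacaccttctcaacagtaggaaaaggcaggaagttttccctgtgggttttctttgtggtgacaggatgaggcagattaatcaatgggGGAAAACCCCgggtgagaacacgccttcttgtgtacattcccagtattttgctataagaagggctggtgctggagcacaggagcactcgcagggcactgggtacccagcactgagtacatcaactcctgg
Ccl3 (chr11:83649329-83649628, minus): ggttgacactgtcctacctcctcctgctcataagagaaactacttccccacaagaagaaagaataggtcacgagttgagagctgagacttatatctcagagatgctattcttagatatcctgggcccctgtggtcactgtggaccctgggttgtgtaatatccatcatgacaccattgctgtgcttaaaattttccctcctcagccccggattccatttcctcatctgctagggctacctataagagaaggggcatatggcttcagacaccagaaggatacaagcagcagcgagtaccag
Ccl17 (chr8:94810203-94810502, plus): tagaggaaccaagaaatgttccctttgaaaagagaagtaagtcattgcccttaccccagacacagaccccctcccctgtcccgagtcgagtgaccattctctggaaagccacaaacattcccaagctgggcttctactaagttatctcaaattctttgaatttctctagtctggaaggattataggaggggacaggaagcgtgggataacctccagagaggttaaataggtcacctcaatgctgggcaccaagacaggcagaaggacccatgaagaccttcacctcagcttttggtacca
Searched on both strands were the kappa-B consensus, the AP-1 site TGANTCA, the interferon-stimulated element (TTTC, any 2 bases, TTTC) and, on the gene's strand, the TATA box TATAAA. The Ccl20 window holds 1 kappa-B match, GGAAAACCCC on the window as printed, with its first base at position -80 from the start. Ccl12 holds 1 TATA box at -31. No other match was found in these 4 windows, which says only that these letters are not in them. Of 32851 promoter windows of this length, 8.46% hold the kappa-B consensus, 7.81% the AP-1 site, 3.44% the interferon element and 8.32% the TATA box. The match in Ccl20 is a description of the sequence and not evidence of binding.

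The AU-rich 7-mer TATTTAT, to which decay factors of the ZFP36 family bind, was searched in the 3′ untranslated regions of the members' transcripts, a search added after seeing the data. It occurs once each in Ccl3, Ccl4, Ccl12 and Ccl20, and the sites are shown with 8 bases on each side and the 7-mer in capitals.
Ccl3: tttgtgacTATTTATtctgaaag
Ccl4: atttctatTATTTATgttttagt
Ccl12: cagtgtgaTATTTATtatgatat
Ccl20: ttttatgtTATTTATagatctga
Ccl2, Ccl5, Ccl7 and Ccl17 have none. The 7-mer was found in 30.9% of 13400 tested genes with an annotated 3′ untranslated region, and in 15.4% of the 5228 whose region is 167 to 1050 bases long, the range of the members. A match is not shown to be a site of decay.

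Genes of other CC ligands followed in part. Of 13 listed, 12 were analysed here and 5 were tested. With LPS 2 of 5 rose and none fell, beside 13.8% and 9.82% of all genes. Ccl8, a further monocyte attractant of the first cluster, had 0.266 ± 0.132, 3.91 ± 1.17 and 0.254 ± 0.142 CPM in control, LPS and Rg1 plus LPS, and rose by 3.87 ± 0.39 (edgeR adjusted p = 1.21e-06). Ccl9 of the second cluster had 2.33 ± 0.998, 14.7 ± 4.15 and 1.37 ± 0.239 CPM and rose by 2.66 ± 0.25 (edgeR adjusted p = 5.12e-07).

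Against LPS, Rg1 plus LPS had 3 of the 5 lower and 1 higher, beside 23.2% and 22.2% of all genes. Ccl8 and Ccl9 fell by 3.92 ± 0.38 and 3.42 ± 0.26 on the log2 scale. Ccl6, which LPS had not changed (0.06 ± 0.34, edgeR adjusted p = 0.913), fell by 1.42 ± 0.36 against LPS (edgeR adjusted p = 0.00378) and had -1.36 ± 0.36 against control. Ccl27a, best known as a skin chemokine and uncertain here because it has a near-identical gene copy, went the other way, from 2.76 ± 0.436 CPM in LPS to 4.75 ± 0.990 in Rg1 plus LPS (log2 fold change 0.79 ± 0.18, edgeR adjusted p = 0.00167). Against control, Ccl25 (0.72 ± 0.27, edgeR adjusted p = 0.0425) and Ccl27a (0.54 ± 0.17, edgeR adjusted p = 0.0228) were higher and Ccl9 (-0.76 ± 0.26, edgeR adjusted p = 0.0282) and Ccl6 were lower. Neither of the 2 higher calls held without control library 1.

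A pair of ligand genes below the count filter had reads in LPS alone. Ccl1 had 0, 34 and 0 counts in the 3 groups, at least 11.4-fold higher in LPS than in control and at least 12.6-fold higher than in Rg1 plus LPS, against a floor of 3 counts over a group. Ccl22, which like Ccl17 binds CCR4 and lies near it on chromosome 8, had 0, 58 and 0 counts, at least 19.4-fold and 21.4-fold higher. Ccl17 itself, by contrast, had 19, 57 and 48 counts.

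Of 10 listed CC receptors 8 were analysed here. These were nearly absent, and none had enough counts to be tested. Nothing is shown here for the other listed receptors of these ligands. Ccr1 had 17, 42 and 8 counts in control, LPS and Rg1 plus LPS, Ccr6 had 1, 1 and 1, and Ccr4 had 0, 0 and 1. With no filter, edgeR called 1 CC receptor higher with LPS and 1 lower in Rg1 plus LPS against LPS, beside 3136 and 6616 of 25748 genes called in either direction.

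Atypical receptors bind chemokines without signalling through G proteins, and 3 of 5 listed had enough counts. Ccrl2, which presents chemerin at the cell surface, had 1.32 ± 0.471 CPM in control, 37.0 ± 11.4 in LPS and 0.986 ± 0.253 in the Rg1 plus LPS group. It rose by 4.81 ± 0.26 with LPS (edgeR adjusted p = 9.81e-10) and fell by 5.23 ± 0.26 in Rg1 plus LPS against LPS (edgeR adjusted p = 3.01e-10). Ackr3, a scavenger of CXCL12, had 35.4 ± 2.84, 11.6 ± 3.05 and 13.1 ± 3.42 CPM. It fell by 1.61 ± 0.18 with LPS (edgeR adjusted p = 5.99e-06), did not pass the test between the LPS-exposed groups (0.17 ± 0.18, edgeR adjusted p = 0.460), and was lower in Rg1 plus LPS than in control (-1.44 ± 0.18, edgeR adjusted p = 1.92e-05).

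Of 22 genes on the route from the LPS receptor to NF-kB, all tested, 11 rose and 2 fell with LPS, beside 13.8% and 9.82% of all genes. Nfkb1, Nfkb2 and Relb, which encode NF-kB subunits, rose by 2.54 ± 0.08, 2.24 ± 0.09 and 2.10 ± 0.09 on the log2 scale. Tlr4, the LPS receptor gene, fell by 0.56 ± 0.14 (edgeR adjusted p = 0.0080) and Ticam1, for the adaptor TRIF, by 0.37 ± 0.07. The list's median log2 fold change was 0.22, against -0.0029 for all genes.

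In Rg1 plus LPS against LPS, 12 of the 22 were lower and 2 were higher (23.2% and 22.2% of all genes), with a median of -0.36. Nfkb1 fell by 2.99 ± 0.08, Nfkb2 by 2.55 ± 0.09 and Relb by 2.52 ± 0.09. Tab1, an activator of the kinase TAK1, rose by 0.77 ± 0.08 (edgeR adjusted p = 8.09e-07) and Ticam1 by 0.20 ± 0.07. Against control, 7 were lower and 1 was higher (11 lower without Rg1 plus LPS library 1), beside 18.1% and 18.8% of all genes, with Tlr4 at -0.74 ± 0.14 and Tab1 at 0.83 ± 0.08. Nfkb1 stood at 55.6 ± 1.82 CPM in control, 322 ± 38.4 in LPS and 40.6 ± 3.58 in the Rg1 plus LPS group.

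Of 6 genes for factors that control chemokine mRNA decay, 4 rose with LPS, beside 13.8% of all genes. Zc3h12a, which encodes the endonuclease regnase-1, rose by 4.52 ± 0.12 (edgeR adjusted p = 1.26e-13), Zfp36 by 2.08 ± 0.14 and Zfp36l2 by 0.55 ± 0.10. All 6 were lower in Rg1 plus LPS than in LPS (23.2% of all genes), with Zc3h12a at -4.98 ± 0.12, Zfp36 at -1.64 ± 0.14 and Zfp36l2 at -1.20 ± 0.10. Against control 4 were lower (18.1% of all genes), among them Zfp36l1 (-1.18 ± 0.20), and Zfp36 was higher (0.43 ± 0.14, edgeR adjusted p = 0.0224). Zc3h12a stood at 8.93, 205 and 6.50 CPM in control, LPS and Rg1 plus LPS.

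For 6 members of sufficient level, the genes with the most similar pattern were sought by the root mean square difference of centred log2 CPM over the 15 libraries, among 10641 other genes. Ccl7 lay nearest to Tnfaip3, a gene for a brake on NF-kB signalling, at 0.33, and to Tnfaip2 at 0.46. Ccl2 lay nearest to the same genes, Tnfaip2 at 0.45 and Tnfaip3 at 0.48. Tnfaip3 stood at 7.79 ± 1.65 CPM in control, 347 ± 9.97 in LPS and 3.23 ± 0.874 in the Rg1 plus LPS group.

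Ccl5 lay nearest to Icosl, for a T cell costimulatory ligand, at 0.32, and to Tlr2 at 0.48. Icosl had 0.818 ± 0.376, 40.9 ± 10.6 and 0.581 ± 0.222 CPM in the 3 groups. Ccl20 lay nearest to Nos2, the inducible nitric oxide synthase gene, at 0.45, and to Csf2 at 0.58. Nos2 had 2, 9416 and 1 counts. Ccl4 lay nearest to Cxcl10 at 0.63 and Neurl3 at 0.73. Ccl3 had the most distant neighbours, Neurl3 at 0.84 and Icosl at 0.85. The level cut was a mean of 5 CPM over the 15 libraries. Ccl3, Ccl4, Ccl5 and Ccl20 reached it only through the LPS libraries, as did Nos2, Csf2, Neurl3 and Icosl. A small distance between such genes largely reflects a rise of like size in LPS. The distances were not set against a background and are a description.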

How the data were processed

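The authors deposited, per library, whole-number counts per gene symbol and FPKM values, which equal count over gene length and total count for the 8 members (largest relative deviation 2.99e-15); 36 FPKM symbols are not among the count symbols, and no member is affected. Builds named in the submitters' processing notes are GRCm38 and mm10, and the aligner, counter and strand option were not given in the sources used here. Per the labels' protocols, RNA was extracted with TRIzol and the VAHTS Universal V6 kit was used. Libraries were grouped by their titles.

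The counts were tested with edgeR 4.0.16 in R 4.3.3 (TMM scaling, filterByExpr, robust glmQLFit, group as the only term, all 15 libraries, two-sided tests); 15362 of 25748 genes were kept. Alternatives used limma 3.58.1 (voom), DESeq2 1.42.0, other scalings, no filter, only the groups compared, a replicate block and libraries left out. Log2 CPM used a prior count of 2, 3 counts in a library correspond to 0.0715 to 0.0922 CPM, and PCR copies make counting intervals too narrow. Scripts were tested on simulated data: of genes made 2-fold different 64 of 98, 79 of 98 and 76 of 99 were recovered in LPS against control, Rg1 plus LPS against LPS and Rg1 plus LPS against control (15157, 15170 and 15175 genes). Of genes made 1.5-fold different, 48 of 98, 71 of 100 and 56 of 97 were recovered, so smaller changes were often missed. False calls were 3 of 115, 5 of 155 and 5 of 137 calls. No 2 libraries of a group were duplicates (chi-square per gene at least 7.10 over 30 pairs).

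Named were all members, other CC ligands and receptors called with a group mean of at least 1 CPM, up to 3 genes per direction and comparison of the route and decay lists by adjusted p, the most abundant microglia markers, and the 2 nearest patterns of members reaching 5 CPM. Members and lists were chosen with earlier results of these data known. Some named items of these lists are not reported here.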

Additional observations from a re-analysis of the deposited data

Results flagged for a closer look

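In 24 combinations of member and group, 1 library stood apart from the other 4: Ccl12 in Rg1 plus LPS library 2 had 0.0248 CPM, which is 1 count, where the other libraries of the group had 0. Where all other libraries of a group hold 0, any single count stands apart in this way, and 1 count is within counting error.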

How the results depend on the processing

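The member values of LPS against control kept direction and call in 166 of 167 values over the alternatives, those of Rg1 plus LPS against LPS in 168 of 168, and those of Rg1 plus LPS against control in 150 of 164, with 14 calls lost and none reversed. Of those 14, 13 concern Ccl17 and 1 Ccl4. The number of members called was 7 with LPS (7 to 8 with 1 library left out, where 8 includes Ccl12), 6 in Rg1 plus LPS against LPS (6 to 7) and 4 against control (3 to 4). Fitting only the groups compared gave 2 against control, since 3 members were then tested. For LPS against control 6 members were then tested, without Ccl17. Scaling by library size alone moved the median log2 fold change of all genes to 0.14 in Rg1 plus LPS against LPS, and member values there still ran from -0.29 for Ccl17 to -9.24 for Ccl4, leaving out Ccl20. Ccl3 with LPS was 114-fold with limma voom. With no filter on low counts, 5 other CC ligands were higher with LPS and 6 lower in Rg1 plus LPS against LPS. In that setting 3136 and 6616 of 25748 genes were called in either direction. Genes with reads in LPS alone, such as Ccl1 and Ccl22, were then tested too.

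A replicate block left the numbers of members called at 7, 6 and 4, with Ccl2 at 5.45, -7.50 and -2.05, and changed no member's call. The numbers were not taken to pair the libraries, because not every same-numbered pair correlated, though all 5 were positive between LPS and Rg1 plus LPS: correlations of same-numbered deviations ran from 0.0499 to 0.424 between LPS and Rg1 plus LPS, where 3 of 5 libraries correlated best with their own number, and from -0.222 to 0.155 between control and LPS. Depth limits Ccl12, Ccl17 and the 8 CC receptors analysed here, which hold few counts.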
